A study of Rattus norvegicus with 32 samples.

Results

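Nuclear receptors are transcription factors, many of which bind a hormone, bile acid, fatty acid or drug, and 37 genes of this superfamily with a role in liver or in endocrine tissues were followed in rat liver after ozone. The members were chosen by name. Of the 37, 33 had a probe set annotated to that gene alone on the array, among 13437 genes in all, and Nr6a1, Rarb, Esrrb and Hnf4g had none in the annotation used here. Where a gene had several probe sets, the one brightest on average stood for it. A filter on dim probe sets left 28 members among the 11625 genes tested.

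Ozone is an oxidant gas, and male Wistar Kyoto rats, 10 weeks old and 250 to 300 g in weight, breathed it at 1 ppm or breathed filtered air for 6 h per day. The ozone and air groups had 6 arrays each at the end of the first exposure (day 1), 5 each at the end of a second daily exposure (day 2), and 5 each 18 h after that second exposure. Total liver RNA was hybridised to 32 Affymetrix rat arrays. Whether each array stands for its own rat is not stated in the labels, so p-values cover only the spread between these samples, which may be technical. Levels are given as log2(intensity + 16), every difference is ozone minus air on that scale unless stated, and the offset understates the change of dim genes. Levels of different probe sets are not compared with each other.

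Many nuclear receptors of the liver act as pairs with a retinoid X receptor (Rxra, Rxrb, Rxrg) and switch target genes on when their ligand binds. The pregnane X receptor (Nr1i2) and the constitutive androstane receptor (Nr1i3) sense drugs and toxins, the glucocorticoid receptor (Nr3c1) carries the stress hormone signal, and PPAR-alpha (Ppara) drives fatty acid oxidation in fasting. The liver X receptors (Nr1h3, Nr1h2) respond to oxysterols, and Hnf4a maintains the gene programme of hepatocytes.

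Array medians lay between 147 and 161 intensity units, and no 2 arrays were identical. The hepatocyte marker list, with Alb, Apoa1 and Ttr, was bright in every group, and its summed intensity had a median of 73952 in day 1 ozone and 75798 in day 1 air livers. The nonspecific binding probes were dim on 2 day 1 arrays, ozone replicate 3 (median 66.1) and air replicate 2 (54.3), and had medians of 85.2 to 92.0 elsewhere. Of the 32 arrays, 7 lay nearer another group than their own, by the correlation of centred values with group means. Day 2 air replicate 5 had -0.52 with its own group and 0.60 with day 2 ozone, and day 2 ozone replicate 5 had -0.25 with its own group and 0.66 with ozone at 18 h. Air replicates 1 and 5 at 18 h had 0.26 and 0.10 with their own group, against 0.70 with ozone at 18 h and 0.61 with day 1 air. The other 3 were air arrays of the end of an exposure that lay nearer the other such air group: day 2 replicates 1 and 2 had -0.02 and 0.30 with their own group and 0.66 and 0.61 with day 1 air, and day 1 replicate 5 had 0.51 and 0.61 with day 2 air. Whether labels were exchanged was not tested, and all groups were kept as labelled. Receptor tests at the later times are given with all 32 arrays and without the first 4, whose nearest group differed in exposure or in harvest at 18 h. The day 2 test is also given without all 7.

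Most receptor changes were found at the end of the first exposure. There 12 of the 28 tested receptors passed the test (limma, Benjamini-Hochberg adjusted p under 0.05), 4 of them higher and 8 lower after ozone. The share was 42.9%, beside 29.5% of all genes tested. By direction, 13.1% of all genes rose and 16.4% fell. The median size of the log2 difference, without its sign, was 0.13 over the receptors and 0.069 over all genes. In 9 of the 28 receptors the ozone and air arrays of day 1 did not overlap, 3 higher and 6 lower, and this held for 15.9% of all genes. In whole liver RNA, fewer cells of a type and less RNA per cell cannot be told apart.

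**Figure D1:**
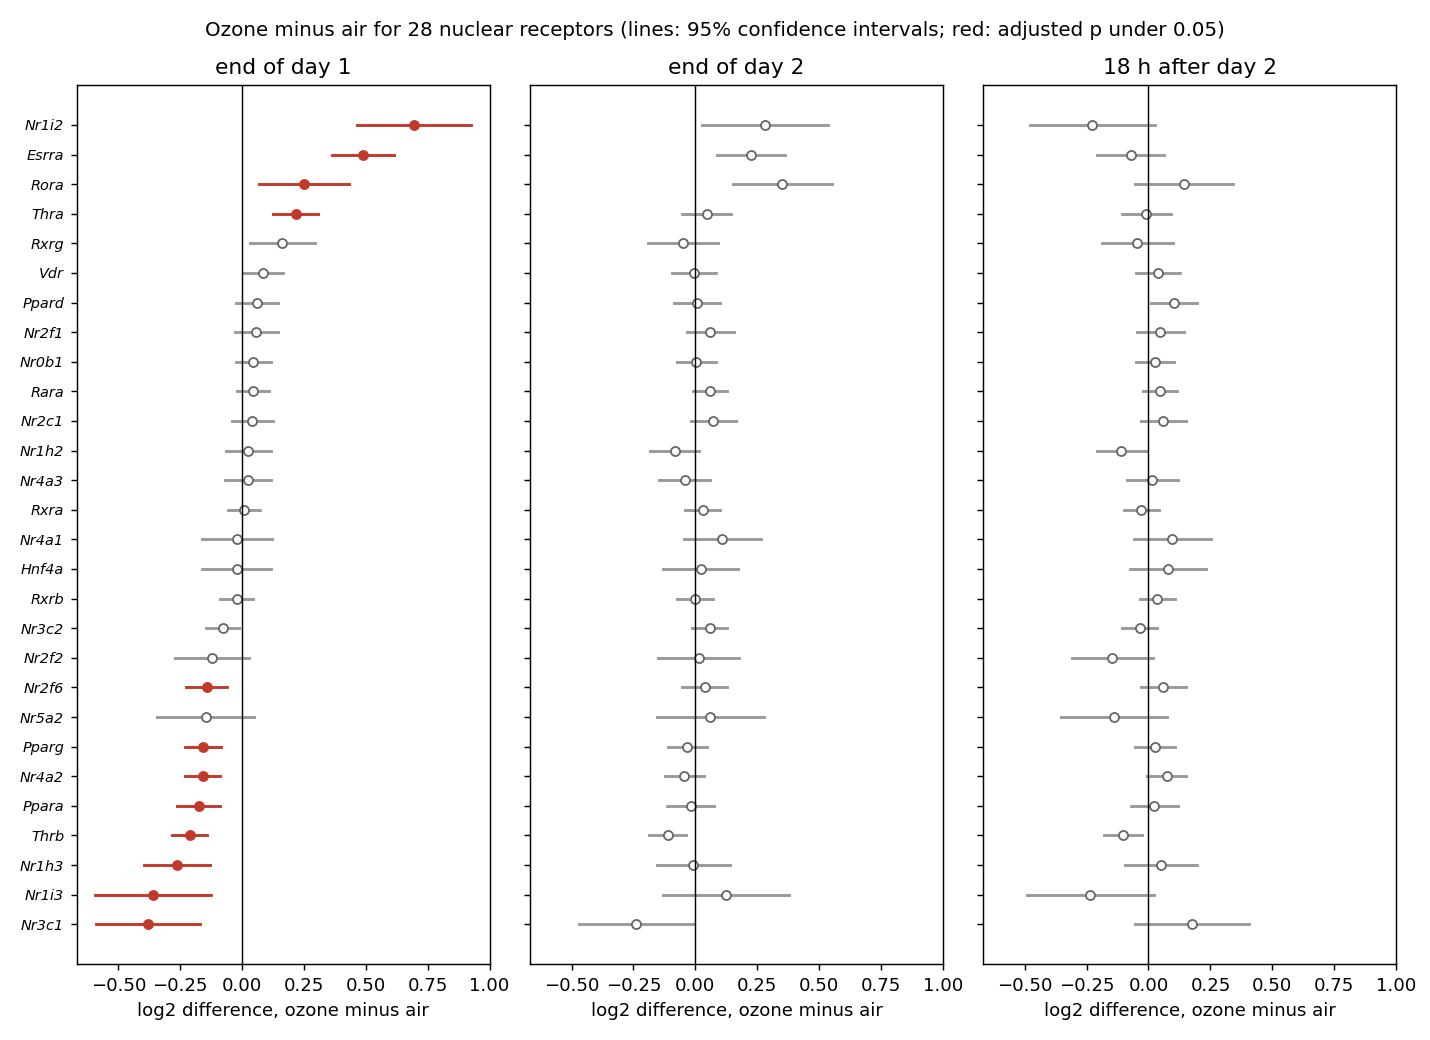
Log2 difference, ozone minus air, of the 28 tested receptors at 3 harvest times. Points are limma estimates, lines are 95% confidence intervals, and red marks an adjusted p under 0.05. All 12 red points stand in the day 1 panel, from 0.70 for Nr1i2 to -0.38 for Nr3c1.

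Both drug sensors changed on day 1, in opposite directions. The promoters of this pair are printed because the pair share many target genes. They are RefSeq sequences of rat build GRCr8, from 250 bases before to 50 after the annotated start, read 5′ to 3′ on the gene's strand. Capitals mark matches on either strand to the receptor half-site AGGTCA, its variant AGTTCA, the steroid receptor half-site AGAACA or the GC box GGGCGG. Nr1i2 lies at chr11:75965467-75965766 on the plus strand and Nr1i3 at chr13:86165170-86165469 on the plus strand.
Nr1i2: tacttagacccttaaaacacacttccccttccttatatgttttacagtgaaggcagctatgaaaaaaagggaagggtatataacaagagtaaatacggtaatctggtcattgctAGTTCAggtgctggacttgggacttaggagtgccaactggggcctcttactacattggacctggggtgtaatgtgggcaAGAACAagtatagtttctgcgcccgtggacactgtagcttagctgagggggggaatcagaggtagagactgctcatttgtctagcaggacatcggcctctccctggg
Nr1i3: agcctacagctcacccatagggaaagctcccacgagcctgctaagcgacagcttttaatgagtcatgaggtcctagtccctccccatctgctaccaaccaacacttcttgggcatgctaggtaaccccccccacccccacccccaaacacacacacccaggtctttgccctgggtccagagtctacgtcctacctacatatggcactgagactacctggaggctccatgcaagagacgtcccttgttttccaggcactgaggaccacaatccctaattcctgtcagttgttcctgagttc
The Nr1i2 window held AGTTCA 136 bases and AGAACA 57 bases before the start, and 47.7% of its bases were G or C. The Nr1i3 window, with 54.7% G or C, held none of these 4 strings. Among 33469 rat promoters, 16.2% held AGGTCA, 14.5% AGTTCA, 20.7% AGAACA and 33.1% GGGCGG, and the median G or C share was 51.7%. A match is a description of letters and not a binding site. RefSeq gave such a window for 29 of the 33 members on the array.

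Nr1i2, the pregnane X receptor, had the largest change of all members. Its log2 level was 9.32, 9.21, 9.27, 8.99, 9.39 and 9.40 in the 6 day 1 ozone livers, and 8.27, 8.68, 8.35, 8.65, 8.75 and 8.71 in the 6 day 1 air livers. The lowest ozone array lay above the highest air array. Nr1i2 rose by 0.70 ± 0.11 (SE), which is 1.62-fold, with an adjusted p of 2.2e-05. Nr1i3, the constitutive androstane receptor, had a lowest, median and highest level of 7.85, 8.04 and 8.11 in day 1 ozone livers and of 8.17, 8.40 and 8.56 in day 1 air livers. These groups did not overlap either, and the difference was -0.36 ± 0.11 (adjusted p = 0.016).

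**Figure D2:**
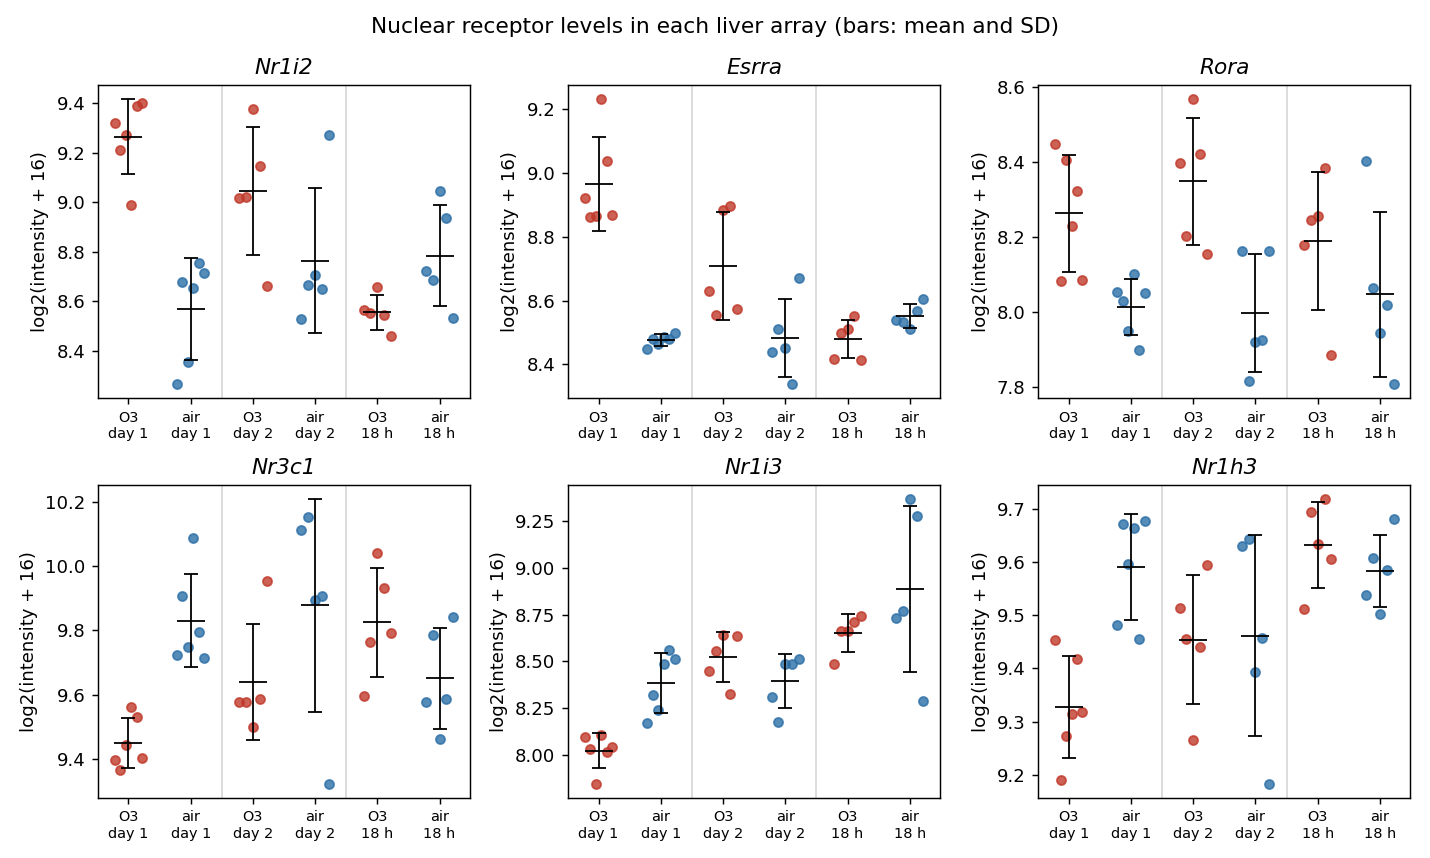
Log2(intensity + 16) on every array for 6 receptors, with ozone (O3, red) left of air (blue) at each harvest time. Horizontal bars are group means and vertical bars are SD. On day 1 the Nr1i2 points of ozone livers lie between 8.99 and 9.40 and those of air livers between 8.27 and 8.75.

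Of the 2 steroid hormone receptors tested, the glucocorticoid receptor passed on day 1. Nr3c1 levels ran from 9.37 through a median of 9.42 to 9.56 in ozone livers and from 9.71 through 9.77 to 10.09 in air livers, without overlap. The difference was -0.38 ± 0.10 (adjusted p = 0.0051), and a second, dimmer Nr3c1 probe set also fell (-0.12, adjusted p = 0.039 in a fit of all probe sets). The mineralocorticoid receptor Nr3c2, which binds aldosterone and corticosterone, averaged 7.50 ± 0.04 in ozone and 7.58 ± 0.06 in air livers (SD, n = 6 each, limma adjusted p = 0.063). Nr3c1 has 2 annotated starts on rat chromosome 18. The window at chr18:31614170-31614469 on the minus strand is shown as that of the member with the largest fall.
Nr3c1: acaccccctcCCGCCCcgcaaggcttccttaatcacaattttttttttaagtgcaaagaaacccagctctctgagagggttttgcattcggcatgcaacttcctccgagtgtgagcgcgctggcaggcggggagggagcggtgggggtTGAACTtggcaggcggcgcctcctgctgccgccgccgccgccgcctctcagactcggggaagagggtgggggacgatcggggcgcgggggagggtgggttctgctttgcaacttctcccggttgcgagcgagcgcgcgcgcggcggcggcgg
It held a GC box 240 bases and AGTTCA 102 bases before the start, both on the opposite strand, which is why the capitals read as their reverse complements. Its G or C share was 66%. The window of the other start, at chr18:31613390-31613689, had 79% and 4 GC boxes.

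The receptors of lipid metabolism that passed on day 1 all fell. Nr1h3, the liver X receptor that induces lipogenic genes in hepatocytes and is also abundant in macrophages, ran from 9.19 through 9.32 to 9.45 in ozone livers and from 9.46 through 9.63 to 9.68 in air livers. The groups touched but did not overlap, and the difference was -0.26 ± 0.07 (adjusted p = 0.0024). Ppara averaged 7.21 ± 0.04 in ozone and 7.39 ± 0.08 in air livers (SD, n = 6 each), a difference of -0.18 ± 0.04 (SE, limma adjusted p = 0.0018), with overlap of the groups. Pparg, the adipogenic PPAR, averaged 7.14 ± 0.06 and 7.29 ± 0.06 in ozone and air livers, and fell by 0.16 on the log2 scale (adjusted p = 0.0010) without overlap. Ppara and Pparg were each read by 1 dim probe set, with means over all 32 arrays of 7.28 and 7.24. The brightness filter stood at 7.11, and the nonspecific binding probes had a median of 6.71 on this scale. Ppard, the third PPAR, and Nr1h2, the widely expressed liver X receptor, did not pass: their differences were 0.06, with a 95% confidence interval of -0.02 to 0.15, and 0.03, with an interval of -0.06 to 0.12.

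Of 10 tested Kupffer cell and macrophage markers, 2 fell on day 1 (Lyz2 and Adgre1) and 0 rose, beside 16.4% of all genes that fell, with a list median of -0.16. Their summed intensity ran from 5150 to 8392 in ozone and from 6718 to 8174 in air livers, with overlap. The medians were 6248 in ozone and 7772 in air livers. On day 2 the sums overlapped, with medians of 5294 and 5371. At 18 h they ran from 4514 to 5953 in ozone and from 6066 to 6977 in air livers, without overlap. There 0 of the 10 markers passed, with a list median of -0.27. No deposited value on any array was under 30.5, so a value above 0 does not show that macrophages were present. The part of macrophages in the receptor differences was not tested. Of the other marker lists on day 1, 3 of 8 endothelial, 1 of 11 stellate cell, 1 of 5 cholangiocyte, 1 of 6 lymphocyte and 2 of 9 hepatocyte markers fell. In the neutrophil list 1 of 3 rose, and in the adrenal list 1 of 2.

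Esrra and Rora rose on day 1. Esrra, the estrogen-related receptor that works with the PGC-1 coactivators on mitochondrial genes, had the smallest p of all members. Its level was 8.92, 8.86, 8.87, 9.23, 9.04 and 8.87 in ozone livers, and 8.45, 8.48, 8.46, 8.49, 8.48 and 8.50 in air livers. The 6 air values span a narrow band well below the ozone values, and the rise was 0.49 ± 0.06, or 1.40-fold (adjusted p = 5.8e-07). The Esrra promoter, shown as that of the second largest rise, lies at chr1:213543256-213543555 on the minus strand.
Esrra: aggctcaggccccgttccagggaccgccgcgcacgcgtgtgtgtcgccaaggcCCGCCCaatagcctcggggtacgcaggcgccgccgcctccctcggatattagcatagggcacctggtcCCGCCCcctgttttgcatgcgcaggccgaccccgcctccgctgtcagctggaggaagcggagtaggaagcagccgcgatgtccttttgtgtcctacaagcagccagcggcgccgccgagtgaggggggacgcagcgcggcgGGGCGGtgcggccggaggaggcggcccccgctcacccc
It held 3 GC boxes, 2 of them on the opposite strand, and none of the 3 half-sites, and 72% of its bases were G or C. Rora, which activates clock genes such as Arntl, averaged 8.26 ± 0.16 in ozone and 8.01 ± 0.07 in air livers (SD, n = 6 each). The arrays overlapped, and the rise of 0.25 ± 0.09 (SE) passed narrowly in limma (adjusted p = 0.034). In 5 of the 12 fits that left out 1 day 1 array it did not pass, with adjusted p up to 0.083, namely without air replicates 3 or 5 or ozone replicates 1, 3 or 5.

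The thyroid hormone receptors moved apart. Thra, the alpha receptor, stood at 7.85, 7.80, 7.83, 7.78, 7.83 and 7.81 in ozone livers, and at 7.58, 7.59, 7.62, 7.62, 7.57 and 7.61 in air livers. Thrb, the beta receptor and the main form in liver, ran from 7.33 through 7.45 to 7.49 in ozone livers and from 7.53 through 7.62 to 7.74 in air livers. Neither receptor's groups overlapped: Thra rose by 0.22 ± 0.04 (adjusted p = 0.00036) and Thrb differed by -0.21 ± 0.03 (adjusted p = 1.9e-05). The dimmer Thrb probe set also fell (-0.12, adjusted p = 0.0031). Both other Thra probe sets missed the threshold, at 0.11 (adjusted p = 0.064) and 0.07 (adjusted p = 0.62).

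Among the orphan receptors, Nr4a2, an immediate early gene of the NR4A family, averaged 7.56 ± 0.06 in ozone and 7.72 ± 0.04 in air livers (SD, n = 6 each). It fell by 0.16 on the log2 scale without overlap (limma adjusted p = 0.00076), and its second probe set fell by as much (-0.16, adjusted p = 0.00043). Its relatives Nr4a1 and Nr4a3 differed by -0.02 and 0.02. Nr2f6, a repressor of the COUP-TF group, averaged 8.80 ± 0.07 and 8.95 ± 0.06 in ozone and air livers, and its difference of -0.14 passed (adjusted p = 0.0070) with overlap. The call rests on its brightest probe set, which carries a suffix for probes shared between transcripts: its other 4 probe sets differed by -0.00 to 0.07, and with the mean of its probe sets the difference was -0.01 (adjusted p = 0.72). Nr2f1 and Nr2f2, the COUP-TFs themselves, differed by 0.06 and -0.12 and did not pass.

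Hnf4a gave different answers by probe set. Its brightest probe set, used for the gene, averaged 11.36 ± 0.12 in ozone and 11.38 ± 0.16 in air livers (SD, n = 6 each), a difference of -0.02 with a 95% confidence interval of -0.16 to 0.12. The dimmest of the 3 ran from 7.45 through 7.65 to 7.72 in ozone livers and from 7.96 through 8.10 to 8.26 in air livers, without overlap. It fell by 0.48 on the log2 scale (limma over all probe sets, adjusted p = 2.7e-05), and the third probe set by 0.29 (adjusted p = 0.0075). With the mean of its probe sets Hnf4a itself passed, at -0.26 (adjusted p = 0.0025). Which transcripts each probe set reads was not analysed here.

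The retinoid X receptors did not pass at any time with all 32 arrays in the fit reported here. Rxra, the main partner receptor of liver, averaged 8.28 ± 0.06 in day 1 ozone and 8.27 ± 0.06 in day 1 air livers (SD, n = 6 each), with a 95% confidence interval of -0.06 to 0.07 for the difference. Its range over all 32 arrays was 0.19, against 1.52 for Nr1i3, the widest among the members. Rxrb differed by -0.02 on day 1. Rxrg, at 8.83 ± 0.09 in ozone and 8.66 ± 0.08 in air livers, lay just short of the threshold (0.16, adjusted p = 0.052). It passed with quantile normalization (adjusted p = 0.028), with only the day 1 groups in the fit (0.024), without the intensity trend (0.050, just under the threshold), without day 1 air replicate 3 (0.036) and without day 1 ozone replicate 4 (0.033). These values are of its brightest probe set. The dimmer Rxrg probe set gave -0.03 on day 1 (adjusted p = 0.58 in a limma fit of all probe sets).

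The other tested members, Rara, Vdr, Nr0b1, Nr2c1 and Nr5a2, also missed the threshold on day 1. Their differences lay between -0.15 for Nr5a2, a regulator of bile acid synthesis, and 0.09 for Vdr, the vitamin D receptor. The dimmer probe set of Rara, the retinoic acid receptor alpha, rose by 0.10 (adjusted p = 0.0031), while the brighter one gave 0.04 (adjusted p = 0.36). With the mean of its probe sets Rara passed, at 0.07 (adjusted p = 0.014).

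Esr1, Pgr, Nr5a1, Nr2c2 and Rarg lay below the brightness filter, a mean log2 level of 7.11. Their levels averaged 6.64 for Pgr, the progesterone receptor, to 7.09 for Nr5a1, the steroidogenic factor of adrenal and gonad. Without the filter none of the 5 passed at any harvest time (smallest adjusted p on day 1 0.16, for Pgr).

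At the end of day 2 no receptor passed. Of the 28, 0 had an adjusted p under 0.05 in limma, and the smallest adjusted p was 0.073, for Rora. Over all genes 0.705% passed. An unadjusted p under 0.05 was found for 5 of the 28 receptors, beside 1510 of all 11625 genes. The groups overlapped for every receptor, while they did not for 1.49% of all genes. At 18 h after day 2 again 0 of 28 passed, and the smallest adjusted p was 0.19, for Thrb. Of the 28, 3 had an unadjusted p under 0.05, beside 1406 of all 11625 genes. Over all genes 1.17% passed, and 2.76% had groups that did not overlap, against 0 of the receptors.

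The members with large day 1 changes had mixed values on day 2. Nr1i2 stood at 9.02, 9.02, 9.38, 9.15 and 8.66 in day 2 ozone livers, and at 8.53, 8.67, 8.71, 8.65 and 9.27 in day 2 air livers. Replicate 5 of each group lay among the values of the other group, and the difference was 0.28 (adjusted p = 0.30). Esrra was 8.63, 8.56, 8.88, 8.90 and 8.57 in ozone livers and 8.44, 8.51, 8.45, 8.34 and 8.67 in air livers, with a difference of 0.23 (adjusted p = 0.085). Rora was 8.40, 8.20, 8.57, 8.42 and 8.15 in ozone livers and 8.16, 7.82, 7.92, 7.92 and 8.16 in air livers, a difference of 0.35. Here the lowest ozone array fell just below the highest air arrays. Nr3c1 was 9.58, 9.58, 9.50, 9.59 and 9.95 in ozone livers and 10.11, 10.15, 9.89, 9.91 and 9.32 in air livers, with a difference of -0.24 (adjusted p = 0.36). Again replicate 5 of each group stood apart from its own group, towards the other.

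At 18 h after the second exposure Nr1i2 was 8.56, 8.55, 8.66, 8.54 and 8.46 in ozone livers, and 8.72, 8.69, 9.04, 8.93 and 8.53 in air livers. All but 1 of the air arrays lay above every ozone array, and the difference was -0.23 (adjusted p = 0.48). Nr1i3 was 8.48, 8.66, 8.66, 8.71 and 8.74 in ozone livers and 8.73, 8.77, 9.37, 9.28 and 8.29 in air livers, where the air values spread over about a log2 unit. Its difference was -0.23 (adjusted p = 0.47). Nr3c1 differed by 0.17, Esrra by -0.07, Rora by 0.14 and Thra by -0.01. Of the members that fell on day 1, Nr1h3, Ppara, Pparg, Nr4a2 and Nr2f6 differed by between 0.02 and 0.07 at this time. Thrb, which also fell on day 1, kept its sign: it differed by -0.11 on day 2 (limma adjusted p = 0.13) and by -0.10 at 18 h (adjusted p = 0.19).

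Without 4 of the 7 arrays that lay nearer another group, a choice made after the data were seen, 5 receptors passed on day 2 beside 13.5% of all genes. Nr1i2 then differed by 0.50 (adjusted p = 0.00092), Rora by 0.44 (adjusted p = 0.0013), and Esrra by 0.31 (adjusted p = 0.0032). Nr3c1 differed by -0.46 (adjusted p = 0.00051) and Thrb by -0.14 (adjusted p = 0.023). The same 5 passed when day 2 air replicate 5 alone was left out, and Esrra and Rora passed without day 2 ozone replicate 5. Without all 7 arrays, which left 2 of the 5 day 2 air arrays, 5 again passed on day 2, beside 8.58% of all genes. They were Nr1i2 (0.46, adjusted p = 0.020), Rora (0.48, adjusted p = 0.0061), Esrra (0.35, adjusted p = 0.015), Nr3c1 (-0.34, adjusted p = 0.044) and Thra (0.19, adjusted p = 0.027), while Thrb did not pass (-0.15, adjusted p = 0.100). At 18 h, 1 receptor, Nr1i3, passed without the 4 arrays (-0.49, adjusted p = 0.0056), beside 4.95% of all genes. On day 1, Rxrg joined the 12 in that fit, beside 32% of all genes. Leaving out arrays because they lie away from their group widens the gap between groups by itself, so these values are no separate evidence.

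**Figure D3:**
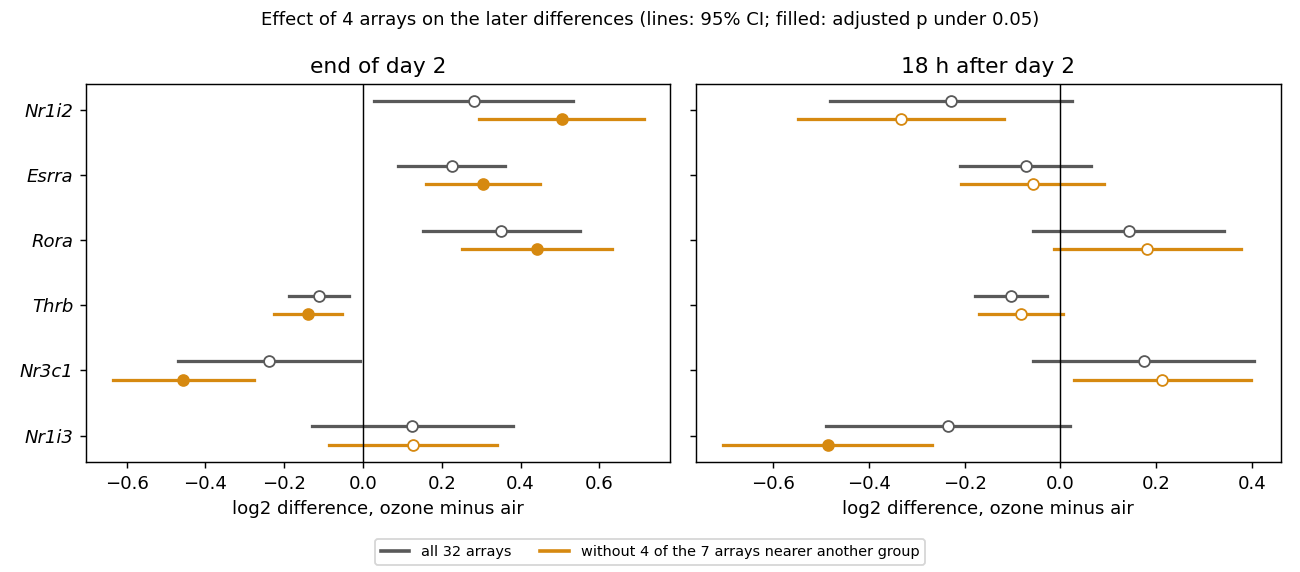
Log2 difference, ozone minus air, of 6 receptors on day 2 (left) and 18 h later (right), with all 32 arrays (grey) and without 4 of the 7 arrays nearer another group (orange). Lines are 95% confidence intervals, and filled points have an adjusted p under 0.05. On day 2, 5 of the orange points are filled and no grey point is.

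Whether the ozone difference itself changed between harvest times was tested as a difference of differences. From day 1 to day 2, 0 of 28 receptors passed in limma, beside 5.09% of all genes. The smallest adjusted p of a receptor was 0.071, for Nr2f6. An unadjusted p under 0.05 was found for 11 of the 28 receptors, beside 2302 of all 11625 genes. From day 2 to 18 h, 0 receptors passed, beside 0.0086% of all genes. There 5 receptors had an unadjusted p under 0.05, beside 1009 of all genes. Without the 4 arrays, Nr1i3 passed in the first of these tests (0.49, adjusted p = 0.047), beside 2.68% of all genes. In the second, 5 passed beside 9.74% of all genes: Nr1i2 (-0.84), Nr3c1 (0.67), Nr1i3 (-0.61), Esrra (-0.36) and Nr4a2 (0.19).

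Between day 1 and 18 h, a contrast added after the data were seen, 9 receptors passed, 6 with a more positive and 3 with a more negative difference at 18 h. Over all genes 20.4% passed, 12.4% more positive and 7.96% more negative. The change was -0.92 ± 0.17 for Nr1i2 (adjusted p = 0.00023), whose ozone livers lay above air on day 1 and whose difference at 18 h was -0.23. It was -0.56 ± 0.09 for Esrra (adjusted p = 7.5e-05) and 0.55 ± 0.15 for Nr3c1 (adjusted p = 0.0090). Nr1h3, Nr2f6, Nr4a2, Ppara, Pparg and Thra also passed. Nr1i3, Rora and Thrb, which had changed on day 1, did not pass here, at 0.13, -0.11 and 0.11. Without the 4 arrays 8 of the 9 passed, beside 23.3% of all genes, Ppara being the exception (adjusted p = 0.069), and the change of Nr1i3, which did not pass, was -0.13.

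Between the air groups no receptor passed with all 32 arrays. From day 1 to day 2 in air, 0 of 28 receptors passed in limma, beside 0.0086% of all genes. An unadjusted p under 0.05 was found for 2 of the 28 receptors, beside 774 of all 11625 genes. From day 2 to 18 h in air, 0 receptors passed, beside 0.12% of all genes. Of all genes 1094 had an unadjusted p under 0.05, and so had 3 of the receptors. The largest of these was that of Nr1i3, at 8.89 ± 0.44 in air livers at 18 h and 8.40 ± 0.15 in air livers on day 2 (SD, n = 5 each, difference 0.49, limma adjusted p = 0.10). Without the 4 arrays Nr1i3 (0.77, adjusted p = 0.00029) and Nr3c1 (-0.40, adjusted p = 0.015) passed in this air comparison, beside 2.63% of all genes.

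Other nuclear receptors, partner proteins and textbook target genes were counted as lists, with all 32 arrays unless stated. The lists were chosen with earlier results of these data known, so their counts beside all genes are a description only. Of 6 further nuclear receptors tested, 3 fell on day 1 and 0 rose: Nr0b2, the corepressor SHP (-1.39 ± 0.26), and the clock repressors Nr1d2 (-0.58) and Nr1d1 (-0.28). Of 18 coregulators, 3 rose and 3 fell, a share of 33.3% that was near the 29.5% of all genes tested. The PGC-1 coactivators Ppargc1a (0.86 ± 0.16) and Ppargc1b (0.56) rose, as Esrra did, and the histone acetyltransferase Crebbp fell by 0.37 on the log2 scale.

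The targets of the PXR and CAR pair mostly fell on day 1. Of 16 tested, 10 fell and 2 rose, with a list median of -0.35 against 0.0045 over all genes. Abcb1a, the drug efflux pump, fell by 0.97 on the log2 scale, the bile canalicular transporter Abcc2 by 0.87, and the uptake transporter Slco1a4 by 0.64. The 2 that rose, Por (1.40) and Gadd45b (1.26), changed by more than any of the 10 that fell. Nr1i2 rose in the same livers and Nr1i3 fell. On day 2 and at 18 h 0 of the 16 passed, and without the 4 arrays 2 rose and 4 fell on day 2 and 1 rose at 18 h.

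The targets of PPAR-alpha rose or missed the threshold on day 1, while the signal of Ppara itself, which was dim and near the brightness filter, fell. Of 20 tested, 9 rose on day 1 and 0 fell, with a median of 0.35. Pex11a, a peroxisome division factor, rose by 1.51, and the mitochondrial fatty acid transport proteins Cpt2 and Slc25a20 by 0.85 and 0.53. On day 2, 2 rose, the fatty acid oxidation enzymes Eci1 (0.83) and Ech1 (0.76), and at 18 h 1 rose, the hormone gene Fgf21 (0.76). In the fit without the 4 arrays 12 rose and 1 fell on day 1, 9 rose on day 2, and 1 rose and 3 fell at 18 h. Over all 11625 genes 752 rose on day 2 in that fit, and 432 rose and 144 fell at 18 h.

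Of 15 liver X receptor targets, 5 fell on day 1 and 0 rose, with a median of -0.11. The cholesterol exporter Abca1 fell by 0.42, Smpdl3a by 0.20 and the sterol transporter Abcg5 by 0.18. On day 2 the lipogenic enzymes Scd (-2.27) and Fasn (-1.13) fell, and at 18 h Scd did (-2.13). Without the 4 arrays 8 fell on day 2, and 2 rose and 1 fell at 18 h. Nr1h3 differed by -0.01 and 0.05 at those times.

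Glucocorticoid receptor targets moved both ways. Of 17, 4 rose and 3 fell on day 1, with a median of -0.01. The receptor cochaperone Fkbp5 rose by 1.17, the tryptophan oxygenase Tdo2 by 0.49, and the gluconeogenic enzyme Pck1 fell by 0.37. At 18 h, 2 fell (Klf9, -0.51, and Errfi1, -0.36), and the list median was -0.36 against 0.015 over all genes. Without the 4 arrays 2 rose on day 2 and 4 fell at 18 h.

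The remaining lists were small or split. Of 7 thyroid hormone receptor targets, 2 rose and 2 fell on day 1, with Bcl3 at 0.82, Me1, the malic enzyme, at -0.42, and Klf9 at 0.36. Of 15 Hnf4a targets, 1 rose and 5 fell, with the bile acid enzyme Cyp8b1 at 0.74, the urea cycle enzyme Otc at -0.20 and the pyruvate kinase Pklr at -0.50. Pklr also fell on day 2 (-0.89). Of 6 retinoic acid receptor targets, 2 rose and 2 fell, among them the retinoid reductase Dhrs3 (-0.75), the transglutaminase Tgm2 (-0.54) and the retinoic acid hydroxylase Cyp26a1 (0.20). Among the coregulators 1 passed at 18 h, the corepressor Nrip1 (0.33). With the 4 arrays left out, 3 of the 7 thyroid hormone receptor targets fell on day 2, 1 of the 18 coregulators rose and 2 fell, 1 of the 15 Hnf4a targets rose and 2 fell, and 1 of the 6 retinoic acid receptor targets fell.

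**Figure D4:**
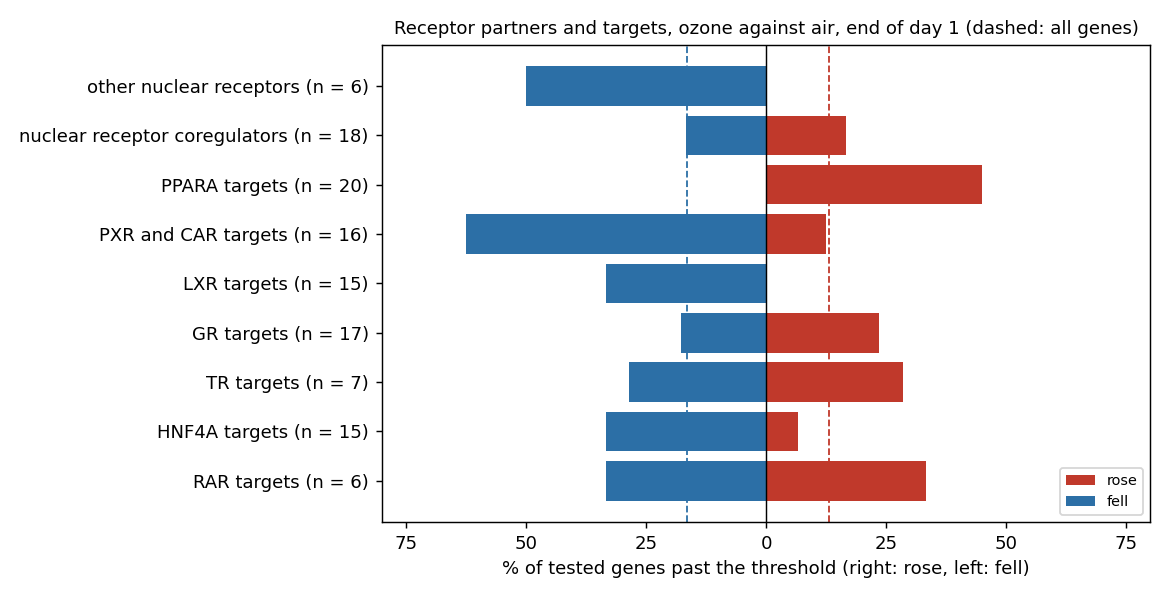
Share of the tested genes of 9 lists that rose (red, right) or fell (blue, left) after ozone on day 1, in percent. Dashed lines are the shares over all genes tested, 13.1% up and 16.4% down. The PXR and CAR targets reach farthest to the left, with 10 of 16 lower, and the PPAR-alpha targets reach farthest to the right, with 9 of 20 higher.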

How the data were processed

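The authors deposited linear probe-set intensity values, and the submitters' processing notes name PLIER and Affymetrix Expression Console. The sources used here do not give their versions, background correction or scaling. The 31139 probe sets were named from GEO's platform annotation. Controls (97), probe sets with no gene (11407) and with several genes (573) were left out. Values were analysed as log2(intensity + 16) without further scaling, since the values were linear. Probe sets below the 25th percentile of mean level were left out, and the brightest stood for its gene.

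Tests used limma 3.58.1 under R 4.3.3 (lmFit, eBayes with trend), with 6 group means, all 32 arrays, no block, two-sided p-values and Benjamini-Hochberg adjustment over 11625 genes at 0.05. The procedure was tested on simulated data. Groups came from the sample titles. No array pair was identical (correlations 0.965 to 0.997). The number of arrays limits the precision.

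Members and gene lists were chosen with earlier results of these data known. The naming rule gave array values for members that passed in an ozone minus air comparison with a log2 difference of at least 0.5 in size. Only Nr1i2 (0.70 on day 1) met it. The rule also named up to 3 passing genes of smallest p per list and harvest time. Por and Gadd45b were named in addition, as the PXR and CAR targets that rose on day 1. Array values of further members, the printed promoters and the motifs were chosen after values were seen. Figures were drawn with matplotlib 3.10.9 and tables made with pandas 2.3.3 in Python 3.11.15.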

Additional observations from a re-analysis of the deposited data

Results flagged for a closer look

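In 10 of 168 combinations of member and group (5.95%), 1 array stood far from the others of its group by Dixon's test at the 95% level, which chance alone flags in about 1 in 20 groups. High arrays were day 2 ozone replicate 3 for Nr1h2 (8.30), day 2 air replicate 5 for Nr1i2 (9.27), day 2 ozone replicate 5 for Nr3c1 (9.95), day 2 ozone replicate 1 for Nr4a1 (7.74) and day 1 air replicate 2 for Rxrb (7.68). Low arrays were air replicate 2 at 18 h for Nr1h2 (8.13), day 1 ozone replicate 3 for Nr1i3 (7.85), day 1 ozone replicate 1 for Nr4a3 (7.81), day 2 ozone replicate 2 for Rxra (8.30) and ozone replicate 5 at 18 h for Rxrg (8.33). Each is a log2 level. No array was an outlier for more than 1 member in this sense.

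The ozone minus air difference at 18 h differed from that of day 1, by limma's test of the difference itself, in 9 of the 28 members. Over all genes 20.4% passed this test, which was added after the data were seen. All 9 were among the 12 receptors that passed on day 1, and the test uses those same day 1 arrays. The change was -0.92 for Nr1i2, -0.56 for Esrra, -0.23 for Thra, 0.55 for Nr3c1, 0.31 for Nr1h3, 0.23 for Nr4a2, 0.20 for Nr2f6, 0.20 for Ppara and 0.18 for Pparg.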

How the results depend on the processing

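The 21 calls of a receptor in a comparison kept their sign in every alternative tried. Of the 203 combinations of receptor and comparison that did not pass, 71 changed sign in at least 1 alternative, for example Nr3c1 in the change from day 1 to day 2 (0.14 with all arrays, -0.08 without the 4 arrays). On day 1, leaving out 1 array at a time gave 3086 to 3498 genes and 11 to 14 receptors, and the other settings kept both counts within 1.5 times of the reported ones. Of the 12 day 1 receptors, the calls of Rora and Nr2f6 were lost in the fits named in the report, and the other 10 were kept in every setting. Others gained a call: Rara with the mean of probe sets (adjusted p = 0.014), Nr3c2 (0.017) and Vdr (0.043) without day 1 air replicate 1, and Nr3c2 without day 1 ozone replicate 6 (0.039).

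The counts of the other comparisons moved with single arrays. Leaving out 1 array at a time gave 1 to 977 genes and 0 to 5 receptors on day 2, with 977 genes and 5 receptors without air replicate 5, 506 genes and 2 receptors without ozone replicate 5, and at most 22 genes without any other day 2 array. It gave 32 to 411 genes and 0 receptors at 18 h, 295 to 892 genes and 0 to 2 receptors for the change from day 1 to day 2, and 0 to 216 genes and 0 to 3 receptors for the change from day 2 to 18 h. The highest of these gene counts came without air replicate 1 at 18 h (411), without day 2 air replicate 1 (892) and without day 2 air replicate 5 (216). For the change from day 1 to day 2, Nr2f6 and Pparg passed without day 2 air replicate 1, Esrra and Thra without day 2 ozone replicate 3, Esrra without day 2 ozone replicate 4, Nr2f6 without day 1 ozone replicate 1, and Nr3c2 without day 1 air replicate 1. The 3 receptors of the change from day 2 to 18 h (Nr1i2, Esrra, Nr3c1) passed without day 2 air replicate 5. In air it gave 0 to 5 genes and 0 receptors from day 1 to day 2, and 0 to 83 genes and 0 to 1 receptors from day 2 to 18 h, where Nr1i3 passed without air replicate 5 at 18 h. For the change from day 1 to 18 h it gave 2056 to 2415 genes and 8 to 9 receptors.

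Without a brightness filter 22 genes passed on day 2 and 8 from day 2 to 18 h in air. With quantile normalization the counts were 141 on day 2, 0 for the change from day 2 to 18 h, and 38 from day 2 to 18 h in air. With the mean of probe sets, 0 genes passed for the change from day 2 to 18 h, 6 from day 2 to 18 h in air, and 1 receptor (Nr4a2) for the change from day 1 to day 2. Fits with only the groups compared gave 1 gene on day 2, 1 at 18 h, 0 in either air comparison, 0 for the change from day 2 to 18 h, and 1 receptor (Nr1i3) for the change from day 1 to day 2.

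Same-numbered arrays correlated between -0.584 and 0.261 in their deviations, and 3 of 32 arrays correlated best with their own number. All 3 were among the 10 arrays at 18 h. The labels name no pairing, and a check on so few arrays per harvest cannot show whether the numbers carry one. With the replicate number as a block, 2751 genes and 12 receptors passed on day 1, 3 genes on day 2, 35 at 18 h, 75 for the change from day 1 to day 2, 0 for the change from day 2 to 18 h, and 2 from day 2 to 18 h in air. In the change from day 1 to 18 h, Nr1h3 (adjusted p = 0.064), Pparg (0.052) and Thra (0.076) missed the threshold in that fit, and Ppara did without air replicate 2 at 18 h (0.052) or ozone replicate 4 at 18 h (0.054). With the mean of probe sets, Nr2f6 (0.96) and Thra (0.052) missed it and Hnf4a passed (0.28, adjusted p = 0.041). Nr1h2 passed without air replicate 2 at 18 h (-0.17, adjusted p = 0.047).

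Without 4 of the 7 arrays nearer another group, added after the data were seen, 1575 genes and 5 receptors passed on day 2, 576 and 1 at 18 h, 312 and 1 for the change from day 1 to day 2, and 1132 and 5 for the change from day 2 to 18 h. In air 3 genes passed from day 1 to day 2, and 306 genes and 2 receptors from day 2 to 18 h. Without all 7, also added later, 997 genes passed on day 2, 594 at 18 h, 234 for the change from day 1 to day 2, 777 for that from day 2 to 18 h, and 160 from day 2 to 18 h in air. The receptors that passed were 5 on day 2, 1 at 18 h (Nr1i3), 1 from day 1 to day 2 (Nr2f6), 3 from day 2 to 18 h (Nr1i2, Esrra, Nr3c1) and 1 in air (Nr1i3), and Ppara missed the threshold from day 1 to 18 h (0.081). The causes were not tested. Dim members near the nonspecific signal have understated differences.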
